A study of Mus musculus with 13 samples.

Results

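The Vcam1-high C1q cells are F4/80+ cells of the mouse fetal liver whose RNA held C1q and much Vcam1, with little late erythroid RNA. They were chosen from measured values in 1 single-cell library. A cell was taken when at least 200 genes were detected, C1qa, C1qb and C1qc together reached 10 per 10000 counts, Vcam1 reached 5, and Tmcc2 and Xpo7 together stayed under 4. Of 3096 barcodes, all distinct, 3093 passed the gene limit. Among these, 1663 reached the C1q limit and are called C1q cells, and 723 of them also reached the Vcam1 limit. After 79 cells had been left out for Tmcc2 and Xpo7, 644 remained, which is 20.8% of the kept cells (95% exact binomial interval 19.4% to 22.3%). They were set beside the 1019 other C1q cells and beside all 2449 other kept cells.

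All samples were F4/80+ cells of fetal livers at E13.5. The single-cell library came from wild-type littermate embryos of one mother, whose cells were selected once with magnetic beads and then again, in the presence of a peptide that blocks Icam4 from binding αv integrin, and barcoded with the 10x Chromium 3′ V3 kit. Bulk polyA RNA was sequenced from 3 EKLF+/+ and 3 EKLF-/- samples, and from 3 EKLF/GFP+ and 3 EKLF/GFP- samples, all sorted by FACS. EKLF-/- embryos lack EKLF (Klf1), a transcription factor of red cell genes, in every cell of the body. The EKLF/GFP samples were wild type for EKLF and carried GFP under the EKLF promoter (pEKLF-GFP), so that GFP reports the activity of a transgene. C57BL/6 is the strain in the labels throughout, whereas the resources list of the study gives 129S4/SvJae for the EKLF-null line. RNA of the EKLF/GFP+ samples was extracted with another kit than that of the EKLF/GFP- samples, and the study gives it a lower integrity than RNA of the EKLF+/+ and EKLF-/- samples. How many livers went into a bulk library is not given in the sources used here.

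In the fetal liver, red cell precursors mature in clusters around a central macrophage. This macrophage holds erythroblasts through adhesion molecules such as Vcam1, which binds α4β1 integrin on the erythroblast. It takes up the nuclei that erythroblasts expel, digests them in its lysosomes, and recycles the iron of heme from engulfed red cells. C1q starts the classical complement pathway and is made by tissue macrophages. Tmcc2 and Xpo7 are transcripts of late erythroid cells, so the limit on them left out barcodes with much erythroid RNA.

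The single-cell values are levels per 10000 counts. A group's level is the sum of a gene's counts over its cells divided by the sum of all their counts, and the intervals in brackets are 95% exact Poisson or binomial intervals. They cover counting error only. There is 1 single-cell sample, so no difference between groups of cells was tested, and a difference of at least 1.5 times is described as higher or lower. Levels of different genes are not compared with each other. The Vcam1-high C1q cells had a median of 13769 counts and 3824 genes per cell, against 14230 counts and 3793 genes in the other C1q cells and 24209 counts and 4480 genes in the 1430 cells under the C1q limit.

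Many cells lay close to the Vcam1 limit. The Vcam1 level had a median of 10.2 in the Vcam1-high C1q cells, with a 10th percentile of 5.94 and a maximum of 50.6. Just inside the limit were cells at 5.0025, 5.0161 and 5.0251, and just outside it were cells at 4.99, 4.9918 and 4.998. Another 78 C1q cells lay between 4 and 5, and 69 of the Vcam1-high C1q cells lay between 5 and 6. In a cell of median depth, the limit corresponds to 6.88 counts of Vcam1. When each cell was first thinned to 5000 counts at random, 584 cells met the rule, of which 527 were the same cells. A class cut from a level in this way is a range and not a type. The limit on C1q mattered less, since 3 of the 644 cells had a C1q sum between 10 and 12. Among cells that met the other limits, the nearest to it had sums of 10.1, 11.4 and 11.6 inside, and 7.15, 8.45 and 8.82 outside. For Tmcc2 and Xpo7 the nearest were 3.73, 3.81 and 3.85 inside and 4.02, 4.16 and 4.38 outside, and 245 of the 644 cells had no count of either.

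**Figure D1:**
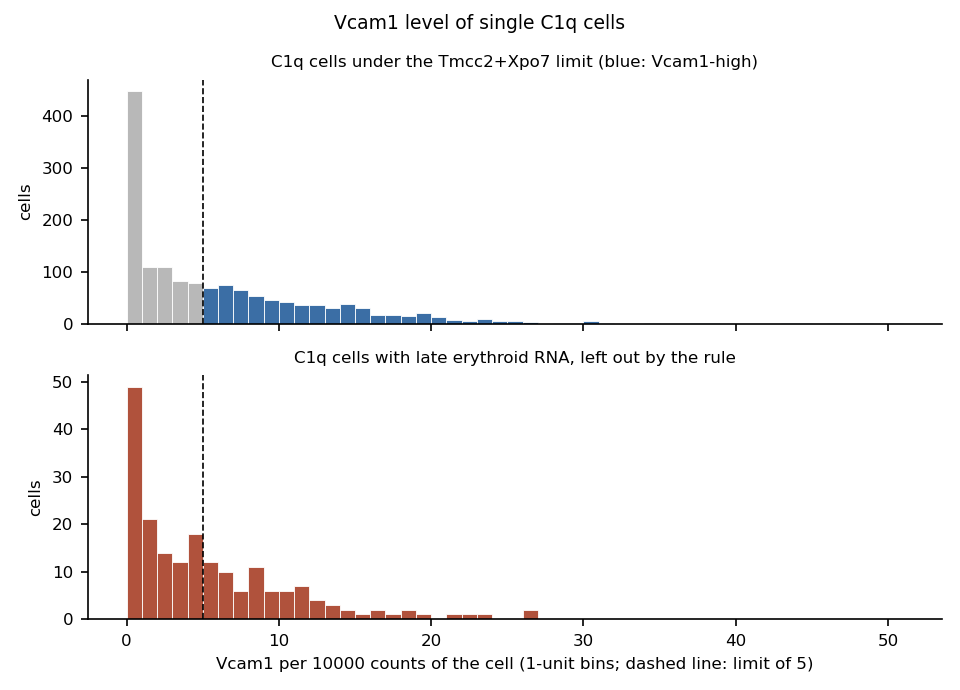
Number of C1q cells (vertical axis) by Vcam1 level per 10000 counts (horizontal axis), with the 644 Vcam1-high C1q cells in blue. The upper panel holds C1q cells under the limit on Tmcc2 and Xpo7 and the lower panel the 193 C1q cells at or over it. No gap separates the cells on either side of the Vcam1 limit of 5, between 4 and 5 of which there were 78 cells.

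The other C1q cells were of 2 kinds by the same rule. In 826 of them Vcam1 was under the limit, with a median of 0.795, and these are called Vcam1-low C1q cells. The other 193 had late erythroid RNA, with a median Tmcc2 and Xpo7 sum of 22.9. Of these 193 cells, 79 reached the Vcam1 limit, so the group of other C1q cells holds some cells with much Vcam1.

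Levels of the 8 macrophage-like markers outside the rule were also compared. Against the other C1q cells 5 of them were higher and 0 lower, beside 7.74% and 3.18% of all genes, with a median ratio of 1.72. The other C1q cells carry such markers too, so this ratio cannot check the label of macrophage. Adgre1, Marco, Mertk, Fcna and Spic were also among the genes picked below by their ratio in these same cells. Adgre1, which encodes F4/80, had 7.17, and Csf1r, the receptor for the growth factor Csf1, had 7.63. Both were detected in nearly every Vcam1-high C1q cell, in 98.1% and 99.4%, against 49.3% and 62.0% of the cells under the C1q limit. Among C1q cells under the Tmcc2 and Xpo7 limit with Vcam1 under 1, the shares were 96.4% and 98.4%. The ratios over the other C1q cells were 1.81 and 1.10. Cd163, a receptor for haemoglobin that marks adult macrophages of red cell islands, was at 0.0135 and was detected in 2.17% of these cells and 0.490% of the cells under the C1q limit. Siglec1 (Cd169) was detected in 29.4% and 8.04%.

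RNA of other cell types was found in most barcodes, and whether it was free RNA or came from doublets was not tested. S100a8, a neutrophil gene, was detected in 81.8% of the Vcam1-high C1q cells at 2.12, against 87.8% and 46.0 in the cells under the C1q limit. Afp, a gene of hepatocyte precursors, was detected in 64.6% of them at 0.797, against 68.8% of the cells under the C1q limit. C1qa itself was detected in 70.0% of the cells under the C1q limit, at 0.560. A share of cells with a count is thus no sign by itself that a cell made the RNA. No doublet caller was run. Markers of another cell type, taken as at least 3 genes of 1 list with at least 2 counts each, were found in 10 of the 644 cells, against 59 of the 826 Vcam1-low C1q cells and 40 of the 193 with late erythroid RNA. Marker genes detected in over 25% of the Vcam1-high C1q cells were left out of this screen, which lowers its count in those cells by construction. Klf1 was detected in 4.66% of the Vcam1-high C1q cells at 0.0279 and in 38.8% of the cells under the C1q limit at 0.679. Gata1, another erythroid factor, was detected in 4.50% of the Vcam1-high C1q cells and in 38.1% of the cells under the C1q limit.

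Genes at a level of at least 1 whose ratio over all other cells was at least 4 are called leading genes. There were 77, of which Vcam1, C1qa and C1qc belong to the rule and 74 do not. The number was 28 with each cell weighted equally and 23 with each cell thinned to 5000 counts, of which 27 and 22 were among the 77. These 74 were chosen on the same cells, so their ratios are a description. Across all 3331 genes measured against all other cells, 1044 were higher by at least 1.5 times, which is 31.3%, and 351 were lower, which is 10.5%. Against the other C1q cells, 246 of 3177 genes were higher (7.74%) and 3.18% were lower. Against the Vcam1-low C1q cells alone, 264 of 3182 were higher (8.3%) and 95 were lower (2.99%). All 74 leading genes were above their level in the other C1q cells, and 73 were higher by at least 1.5 times, with a median ratio of 1.95 and a range of 1.48 to 4.23. The median over all genes was 1.02.

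Cd5l, a protein that macrophages secrete, had the highest ratio over all other cells among leading genes outside the rule at a level of 2 or more. Its level was 15.1 in the Vcam1-high C1q cells, 8.97 in the C1q cells with late erythroid RNA, 3.36 in the Vcam1-low C1q cells and 0.437 in the cells under the C1q limit. The ratio over the other C1q cells was 3.52 [3.43, 3.61]. Cell by cell it varied widely, with a median of 11.9, a 10th percentile of 0.966 and a 90th percentile of 36.1, and 34 cells had none. Cd5l was detected in 94.7% of these cells, against 59.8% of the cells under the C1q limit. After thinning to equal depth the shares were 86.4% and 21.3%, with 52.7% in the other C1q cells.

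Marco, a scavenger receptor for bacteria and particles, had 13.6 against 3.91 in the other C1q cells, a ratio of 3.49 [3.40, 3.59]. It too varied widely from cell to cell, with a median of 7.99, a range from the 10th to the 90th percentile of 0.642 to 34.6, and 48 cells without a count. Fcna (ficolin A), a soluble protein that binds sugars on microbes and activates complement, was more even. Its level was 11.1 against 3.57, a ratio of 3.11 [3.02, 3.20], its percentiles were 4.23 and 18.1, and 4 cells had none. Fcna was found in 99.4% of the Vcam1-high C1q cells and 43.1% of the cells under the C1q limit. After thinning it was found in 96.9% of the Vcam1-high and 58.5% of the other C1q cells.

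Il18bp, a secreted inhibitor of interleukin 18, had a level of 3.61 against 1.10, a ratio of 3.29 [3.12, 3.47]. Il18 itself was also higher, at 1.90 against 1.05. Cdh5 (VE-cadherin), best known from the junctions of blood vessels, had 2.86 against 0.960, a ratio of 2.98 [2.81, 3.16]. Stab2, a scavenger receptor of liver sinusoids, had 0.670 against 0.279, while Kdr, the defining receptor of endothelial cells, was at 0.0414 and detected in 5.90% of the cells, against 11.1% of the cells under the C1q limit. The 10 endothelial-like markers summed to 4.20 in the Vcam1-high C1q cells and to 2.23 in the other C1q cells, and none of the 10 was at 0. These sums include Cdh5 and Stab2. Each of the other 8 was below its level in the other C1q cells, with ratios from 0.276 for Tek to 0.923 for Pecam1.

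Start-site windows of leading genes were read from the RefSeq annotation of GRCm38.p6, from 250 bases before to 50 bases after each start. They are shown for the 4 genes with the highest ratios over all other cells among genes outside the rule at 2 or more, to give the sequence next to which these transcripts begin. Capitals mark GAGGAA, a core that PU.1 and its relative Spic bind, or its reverse complement TTCCTC.
Cd5l, chr3:87357631-87357930, plus strand: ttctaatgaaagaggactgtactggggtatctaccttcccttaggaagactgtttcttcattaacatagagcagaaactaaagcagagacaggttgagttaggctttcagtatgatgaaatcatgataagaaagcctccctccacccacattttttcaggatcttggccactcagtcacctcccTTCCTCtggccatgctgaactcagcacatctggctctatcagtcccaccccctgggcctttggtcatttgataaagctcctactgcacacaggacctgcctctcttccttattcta
Marco, chr1:120504975-120505274, minus strand: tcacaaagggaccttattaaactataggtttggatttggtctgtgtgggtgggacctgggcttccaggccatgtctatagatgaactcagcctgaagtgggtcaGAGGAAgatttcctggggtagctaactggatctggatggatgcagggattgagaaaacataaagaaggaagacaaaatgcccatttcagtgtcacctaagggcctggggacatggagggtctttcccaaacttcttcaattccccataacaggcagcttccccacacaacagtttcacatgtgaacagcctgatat
Fcna, chr2:25627925-25628224, minus strand: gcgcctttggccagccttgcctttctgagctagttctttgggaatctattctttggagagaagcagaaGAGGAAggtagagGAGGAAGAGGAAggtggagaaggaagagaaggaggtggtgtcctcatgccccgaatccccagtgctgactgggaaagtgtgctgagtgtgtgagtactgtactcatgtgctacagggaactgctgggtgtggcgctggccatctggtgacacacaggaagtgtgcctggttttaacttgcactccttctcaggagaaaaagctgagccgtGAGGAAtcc
Il18bp, chr7:102018183-102018482, minus strand: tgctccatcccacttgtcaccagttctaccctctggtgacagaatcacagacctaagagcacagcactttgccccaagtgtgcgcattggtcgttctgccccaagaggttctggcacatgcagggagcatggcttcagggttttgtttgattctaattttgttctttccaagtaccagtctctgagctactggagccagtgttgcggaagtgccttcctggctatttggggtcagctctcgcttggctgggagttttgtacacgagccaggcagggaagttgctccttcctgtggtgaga
The Fcna window held 4 copies, those of Cd5l and Marco held 1 each, at bases -66 and -146 from the start, and that of Il18bp held 0. A window was found for 56 of the 74 leading genes, 72 windows in all. GAGGAA on either strand was in 31.9% of them and in 28.3% of all 32851 windows. CACGTG, the core of the site of the lysosomal regulators Tfeb and Mitf, was in 9.72% and 7.15%. For TGCTGAC, which Maf binds, the shares were 6.94% and 4.67%. CCNCNCCC, the site of EKLF and other KLF factors, was in 62.5% and 49.5%. TGANTCA, the AP-1 site, was in 8.33% and 7.81%, and TATAAA in 13.9% and 13.6%. These letters say nothing of binding, and windows that begin near each other share sequence.

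Of 16 measured genes of the list for efferocytosis and scavenging, 11 were higher than in the other C1q cells and 1 was lower. The median ratio was 1.95, and among all genes 7.74% were higher and 3.18% lower. Timd4, a receptor for phosphatidylserine, had 3.59 against 1.57, a ratio of 2.29 [2.18, 2.40], and only 28 of the 644 cells lacked it. Mertk and Axl, receptor kinases that bind the same lipid through bridging proteins, had ratios of 2.21 and 2.10. Clec1b, a lectin receptor, had 1.90 against 0.572, a ratio of 3.31 [3.08, 3.57]. Cd302, Colec12, Cd300a and Scarb1 were higher by 1.96, 1.95, 1.64 and 1.53 times. Not all scavenger receptors followed. Mrc1, Msr1 and Cd36 had ratios of 1.03, 0.997 and 1.08, and Stab1 was lower, at 0.889 against 1.71.

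Of 17 measured genes of heme and iron recycling, 6 were higher than in the other C1q cells and 0 were lower. For all genes the shares were 7.74% and 3.18%. Hmox1, which breaks heme down, had a level of 34.2 in the Vcam1-high C1q cells, 24.5 in those with late erythroid RNA, 13.8 in the Vcam1-low C1q cells and 1.78 in the cells under the C1q limit. It was found in every Vcam1-high C1q cell and in 90.2% of the cells under the C1q limit. The Vcam1-high C1q cells had a median of 23.2 and a range of 6.17 to 74.0 between the 10th and the 90th percentiles. Slc40a1 (ferroportin), which exports iron, had 18.1 against 10.3, a ratio of 1.75 [1.72, 1.79], and was narrower from cell to cell, at 10.0 to 27.1. Slc48a1, which moves heme out of the phagosome, and Lrp1, the receptor for heme bound to hemopexin, had ratios of 1.59 and 1.73. Blvra, which reduces the product of Hmox1, had 1.51, and Slc11a1, a metal carrier of the phagosome, 1.53. Iron storage differed less, since Fth1 and Ftl1 had 122 against 86.6 and 166 against 124. Bach1, a heme-sensing repressor of Hmox1, had 0.547 against 0.673.

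Of 34 measured lysosomal genes, 18 were higher and 0 lower, with a median ratio of 1.53, where 7.74% of all genes were higher. Ctsd, a protease, had 42.0 against 19.8, a ratio of 2.12 [2.09, 2.15]. It was found in every Vcam1-high C1q cell and in 98.2% of the cells under the C1q limit. Acp5 and Lipa had ratios of 2.22 and 1.95. Ctsb had 43.2 against 25.1, and Lgmn, another protease, had a ratio of 1.73. Dnase2a, the enzyme that digests the DNA of expelled nuclei, had 1.32 against 0.861, a ratio of 1.53 [1.43, 1.64]. Ctss and Cd63, also of the lysosome, did not differ by 1.5 times, at 1.08 and 0.883.

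Of 13 measured lipid genes, 7 were higher and 1 was lower, beside 7.74% and 3.18% of all genes. Abca1, which exports cholesterol, had 2.89 against 1.45, Pltp 0.992 against 0.437, and Lpl, which splits the fat of lipoproteins, 9.95 against 5.21. Nr1h3 (LXRα), which senses sterols and turns such genes on, had 3.36 against 2.34. Apoe, the main apolipoprotein that macrophages secrete, was lower, at 15.4 against 23.5, a ratio of 0.654 [0.643, 0.665]. It no longer differed by 1.5 times with each cell weighted equally (0.687), with Vcam1 at 10 or more (0.756) or after thinning (0.688), and the medians per cell were 12.2 in the Vcam1-high and 14.3 in the Vcam1-low C1q cells.

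Of the adhesion molecules of the erythroblastic island, Vcam1 belongs to the rule. Cd44, a receptor for hyaluronan, was the 1 of the other 11 measured genes that was higher, at 4.57 against 2.57. Among all genes, 7.74% were higher and 3.18% lower. Itgav, the αv integrin that binds Icam4 on erythroblasts, had 0.956 against 0.648, a ratio of 1.48 [1.36, 1.60]. Itgb1 had a ratio of 1.37, and Emb was lower, at 0.269 against 0.551. Itga4 and Maea had ratios of 0.826 and 1.15. Of the 4 measured complement genes outside the rule, Cfp (properdin), which stabilises the alternative pathway, had 4.96 against 2.45 and Fcna is given above. C3ar1, a receptor for a complement fragment, was lower, at 0.438 against 0.887.

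Of 20 measured transcription factors, 2 were higher (10% against 7.74% of all genes) and 3 were lower (15% against 3.18%), with a median ratio of 1.02. Maf had 4.67 against 5.73. Spic, the factor of macrophages that recycle red cells and a marker given for these cells, had 2.07 against 1.26, a ratio of 1.64 [1.55, 1.74]. The ratio was under 1.5 with each cell weighted equally (1.48) and without the deepest cells and those with markers of another cell type (1.49). It was detected in 82.6% of the Vcam1-high C1q cells and, after thinning, in 56.0%, against 40.2% of the other C1q cells and 6.42% of the cells under the C1q limit. Klf6, Runx1 and Klf2 were lower, at ratios of 0.598, 0.478 and 0.660.

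Of 9 growth factors and cytokines, 4 were higher and 3 lower, beside 7.74% and 3.18% of all genes. Igf1 had 5.23 against 2.38, a ratio of 2.20 [2.12, 2.29]. It was found in 98.3% of the cells, 83.0% of the other C1q cells and 32.7% of the cells under the C1q limit. Ccl24 had 6.73 against 3.67 and Ccl6 2.35 against 1.30. Pf4, Ccl3 and Ccl9 were lower, at ratios of 0.559, 0.383 and 0.315. Of 5 genes for antigen presentation, Cd86 was higher at 2.04 times, beside 7.74% of all genes. Of 12 Fc receptors and adaptors, the lectins Clec4n and Clec7a were higher, at 2.24 and 1.93 times, beside the same share. In 6 interferon response genes, 0 were higher and 2 lower, beside 7.74% and 3.18% of all genes.

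**Figure D2:**
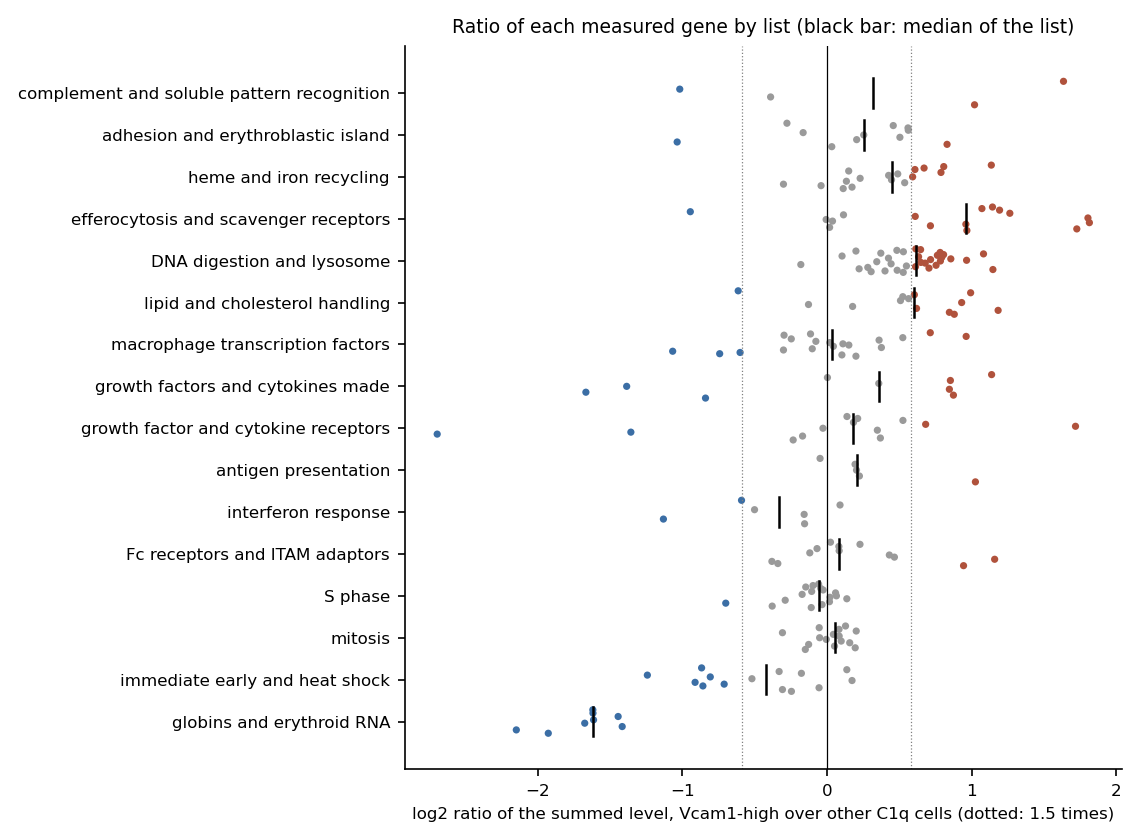
log2 ratio of the level in Vcam1-high C1q cells over the other C1q cells (horizontal axis) for each measured gene outside the rule, 1 row for each of 16 function lists. Each point is a gene, the black bar is the list's median and the dotted lines mark 1.5 times in either direction. Efferocytosis has a median ratio of 1.95. The 8 globin and erythroid genes have 0.326, which the rule bears on, since it put the cells with late erythroid RNA among the other C1q cells.

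The genes lower than in the other C1q cells included globins, genes of monocytes and immediate early genes. For globins the rule itself bears on this, since it put the cells with late erythroid RNA among the other C1q cells. The 7 globin genes summed to 85.2 in the Vcam1-high C1q cells, 178 in the Vcam1-low, 675 in those with late erythroid RNA and 1150 in the cells under the C1q limit. Their medians per cell were 49.5, 45.0, 159 and 46.5, so in the typical cell the Vcam1-high and Vcam1-low groups were close. Globins reached 1000 in 4 of the 644 Vcam1-high and 19 of the 826 Vcam1-low C1q cells, and without these cells the sums were 61.1 and 56.3, so the Vcam1-high cells were then no longer below the Vcam1-low cells.

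Cx3cr1, the chemokine receptor that fetal macrophage precursors lose as they settle in the liver, had 1.36 in the Vcam1-high and 3.87 in the Vcam1-low C1q cells. The ratio over all other C1q cells was 0.391 [0.370, 0.413], and 270 of the 644 cells had no count. Ccr2 and F13a1, of monocytes, had ratios of 0.154 and 0.0578, and the 8 monocyte-like markers summed to 2.56 against 6.46. Dab2, a cargo adaptor, had 1.61 against 3.39. Ifitm3 and Ifi27l2a, which interferon induces, had 2.37 against 5.78 and 1.02 against 2.23. Of 14 immediate early and heat shock genes, which the handling of cells can also induce, 6 were lower, with a median ratio of 0.747. Among all genes 3.18% were lower. Ribosomal protein genes summed to 1890 in the Vcam1-high and 2270 in the Vcam1-low C1q cells, and mitochondrial transcripts to 518 and 450. Cell cycle genes differed little, with S phase genes at 17.0 and 18.5 and mitotic genes at 23.0 and 22.0. What part these differences in RNA content have in the ratios above was not tested.

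Levels were also followed over bins of Vcam1, the value that chose the cells, as a description. C1q cells under the limit on Tmcc2 and Xpo7 were put in 6 bins of Vcam1, of 448, 160, 218, 307, 275 and 62 cells, from under 1 to 20 or more. Over these bins Cd5l had levels of 1.23, 3.38, 8.39, 12.1, 16.5 and 26.7. Fcna had 1.51, 3.22, 6.03, 9.31, 12.1 and 16.5. Ctsd had 19.4, 26.3, 35.7, 44.8 and 66.0 from the second bin on. For all 3 genes the bin just under the limit lay between its neighbours. Timd4 had 0.998, 1.38, 2.54, 3.27, 3.80 and 4.42, and Hmox1 had 10.9, 17.1, 18.4, 31.0, 36.0 and 44.8. Between neighbouring bins, the largest difference of Hmox1 lay at the limit of the rule, between 18.4 and 31.0. Cx3cr1 ran the other way, at 4.91, 3.29, 1.79, 1.53, 1.21 and 1.13, and most of its difference lay under the limit. Pf4 went from 9.62 to 3.49. Apoe did not keep one direction, with 31.2 in the first bin, 13.2 in the third and 23.2 in the last, so that its highest levels were at both ends. Csf1r stayed between 6.42 and 10.6. The bins had median depths of 18050, 10649, 12640, 13893, 14626 and 10389 counts per cell.

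**Figure D3:**
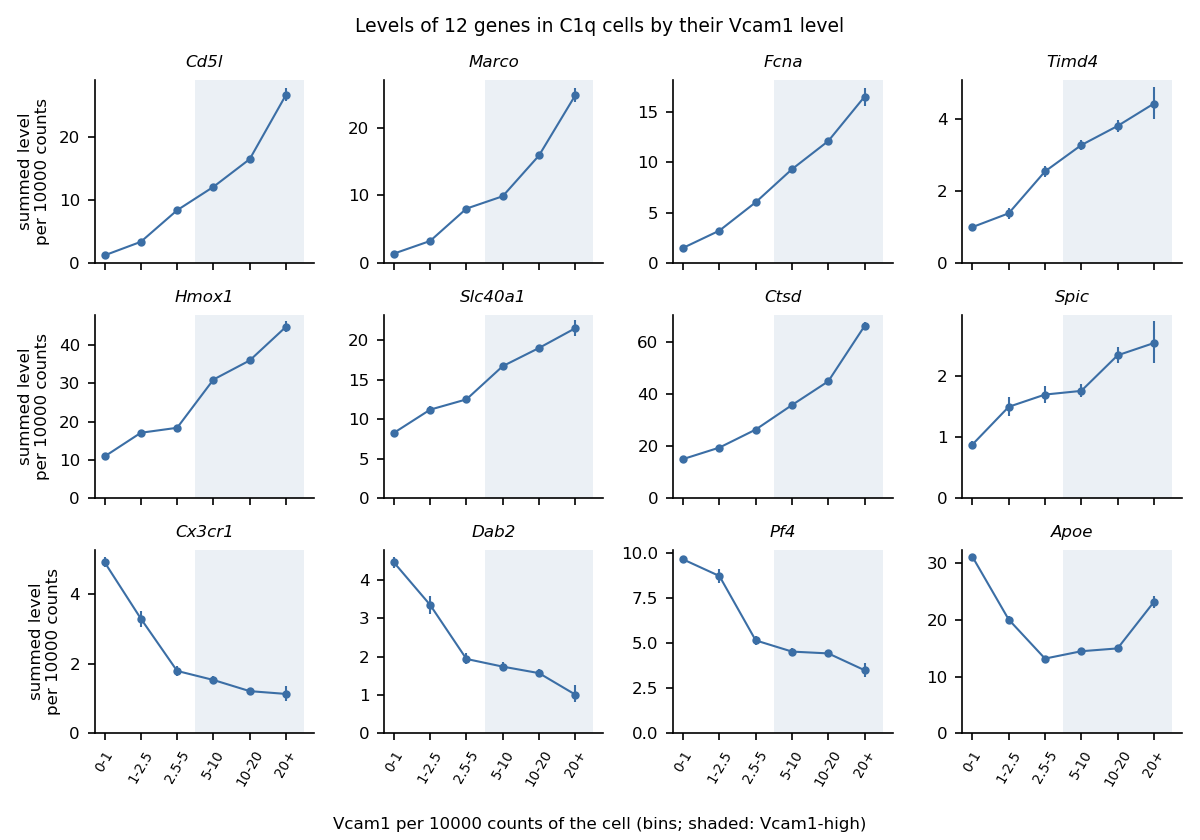
Level per 10000 counts (vertical axis, its own scale in each panel) of 12 genes in 6 bins of C1q cells ordered by Vcam1 level (horizontal axis), with 95% Poisson intervals. The shaded bins are the Vcam1-high C1q cells. Cd5l goes from 1.23 to 26.7 and Cx3cr1 from 4.91 to 1.13, Hmox1 goes from 18.4 to 31.0 at the limit, and Apoe is highest in the end bins.

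Within the Vcam1-high C1q cells, 5 of the 10 genes with the highest correlation with Vcam1 were lysosomal (Ctsd, Ctsb, Lgmn, Grn and Psap). Over the 638 cells deep enough to be thinned to 5000 counts, the Spearman correlation with Vcam1 was 0.333 for Ctsd, 0.325 for Ctsb and 0.285 for Lgmn. Grn, Abca1, Psap, Atp8a1, Colgalt1, Fcna and Trf followed with 0.229 to 0.203. The median over 6349 genes was 0.002, with 5th and 95th percentiles of -0.085 and 0.088. The lowest value was that of a ribosomal protein gene, Rps10, at -0.247. All points are cells of 1 library, and such weak correlations in sparse counts are given as a description only.

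The leading genes were then followed in the bulk libraries, which the rule did not use. Values there are normalized counts, scaled for library size within each comparison, and counts of one gene are not set against those of another. Fewer cells of a type and less RNA per cell cannot be told apart in bulk. Depth was 10695514 to 15362161 counts on genes in the EKLF+/+ and EKLF-/- libraries and 22721821 to 28735267 in the EKLF/GFP libraries. Each comparison was tested by quasi-likelihood in edgeR, and p-values were adjusted by Benjamini-Hochberg across every gene tested.

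In EKLF-/- livers, 18 of the 72 leading genes that could be tested were lower, which is 25%, against 10.6% of all 12752 genes tested. 1 was higher, which is 1.39%, against 9.72% of all genes. The remaining 2 leading genes, E230029C05Rik and Cd300c2, were not tested. Gfra2, 1 of the 18, passed the count filter only through the EKLF+/+ libraries. Among the 72, 47 had a negative fold change and 25 a positive one, with a median log2 fold change of -0.17, where that of all genes was 0.02. Klf1 had 4733, 3978 and 4907 normalized counts in EKLF+/+ and 766.9, 838.6 and 745.7 in EKLF-/-, at -2.53 ± 0.12 (log2 fold change and its SE, edgeR adjusted p = 7.22e-06). Every EKLF-/- library lay below every EKLF+/+ library.

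Of the genes of the rule, Tmcc2 and Xpo7 fell, by 1.80 and 1.10 on the log2 scale (edgeR adjusted p = 2.24e-05 and 0.00119), and Vcam1 and the 3 C1q genes did not pass the test. Vcam1 had 203.9, 220.1 and 318.5 normalized counts in EKLF+/+ and 187, 197.7 and 174.1 in EKLF-/-, at -0.41 ± 0.19 (log2 fold change and its SE, edgeR adjusted p = 0.142). Its groups did not overlap. C1qa had 118.3, 253.2 and 273 against 129.8, 319.5 and 142.9, and its adjusted p in edgeR was 0.827. C1qb and C1qc had log2 fold changes of 0.53 and 0.16 and also missed the threshold. In all 3 C1q genes EKLF-/- replicate 2 was above every other library.

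The receptor Timd4 fell in EKLF-/-. Its counts were 60.34, 85.25 and 115.9 in EKLF+/+ and 28.13, 25.96 and 16.1 in EKLF-/-, at -1.89 ± 0.31 (log2 fold change and its SE, edgeR adjusted p = 0.0056). The groups did not overlap. The scavenger receptor Marco had 162.9, 218.4 and 356.5 against 78.96, 216.6 and 104.7, where the groups overlapped (log2 fold change -0.89, edgeR adjusted p = 0.137). Mertk and Axl had log2 fold changes of -0.23 and 0.03 and did not pass. Of 27 tested genes for efferocytosis and scavenging, 5 were lower and 2 higher, beside 10.6% and 9.72% of all genes, and Stab2 was among the lower, with a log2 fold change of -1.39 (edgeR adjusted p = 0.00193).

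Among secreted proteins, Cd5l, Fcna, Il18bp and Igf1 fell. Cd5l had 208.8, 245.3 and 347.8 normalized counts in EKLF+/+ and 113.4, 148.7 and 129.8 in EKLF-/-, at -1.03 ± 0.21 (log2 fold change and its SE, edgeR adjusted p = 0.0136). Fcna had 132.7, 152.2 and 189.6 against 67.16, 105.8 and 61.39 (-1.02 ± 0.25, edgeR adjusted p = 0.0242). Il18bp had 68.78, 62.64 and 95.34 against 37.21, 33.94 and 40.25 (-1.02 ± 0.23, edgeR adjusted p = 0.0194). In each of these 3 genes the groups did not overlap. Igf1, a growth factor, had 59.13, 134 and 98.59 against 49.01, 47.92 and 28.18 (-1.23 ± 0.33, edgeR adjusted p = 0.0358). With the replicate number as a block, Igf1 missed the threshold (edgeR adjusted p = 0.0524).

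The largest falls among the leading genes were those of Tmem26 and Gfra2. Tmem26, a membrane protein, had 28.96, 23.49 and 45.51 normalized counts in EKLF+/+ and 9.076, 5.99 and 5.032 in EKLF-/- (-2.24 ± 0.39, edgeR adjusted p = 0.00707). Gfra2, a co-receptor for the growth factor neurturin, had 15.69, 27.84 and 31.42 against 7.26, 7.986 and 4.025 (-1.95, edgeR adjusted p = 0.014). Both rest on few counts. Gfra2 passed the count filter only through the EKLF+/+ libraries, where it is high, so its fall is a description only. In the single cells, Tmem26 and Gfra2 had ratios of 4.23 and 3.37 over the other C1q cells. Timd4, given above, came next, and then Myo9a, an unconventional myosin, at -1.30 (edgeR adjusted p = 0.00608). Abcc3, an exporter, and Sema6d, a guidance protein, had -1.07 (edgeR adjusted p = 0.00652) and -1.18 (edgeR adjusted p = 0.00458).

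Cdh5 had 387.4, 319.3 and 331.5 normalized counts in EKLF+/+ and 194.2, 146.7 and 154 in EKLF-/-, at -1.07 ± 0.16 (log2 fold change and its SE, edgeR adjusted p = 0.00326). Some other endothelial-like markers were lower too. Of 10 endothelial-like markers, Cdh5 and Stab2 included, 5 were lower and 0 higher, beside 10.6% and 9.72% of all genes. The 10 summed to 3294 to 3703 in EKLF+/+ and to 2242 to 2426 in EKLF-/-, with none at 0. The part of endothelial RNA in the falls of Cdh5 and Stab2 was not tested.

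Hmox1 and Slc40a1 did not pass the test. Hmox1 had 689, 836 and 972.9 against 729.7, 1250 and 682.3, and Slc40a1 had 1215, 1077 and 1499 against 1509, 1463 and 1349. Both overlapped, with log2 fold changes of 0.09 and 0.19 and edgeR adjusted p of 0.792 and 0.315. Ctsd was the leading gene that was higher, with 4401, 4779 and 4950 against 7232, 9677 and 7554 (0.79 ± 0.14, edgeR adjusted p = 0.00716). Ctsb fell, by 0.55 on the log2 scale (edgeR adjusted p = 0.0289). Of 35 tested lysosomal genes, 12 were higher and 2 lower, beside 9.72% and 10.6% of all genes, with a median of 0.34. Of 27 heme and iron genes, 5 were higher and 3 lower, beside the same shares of all genes, and the ferritin genes Fth1 and Ftl1 were among the higher, at 0.97 (edgeR adjusted p = 0.00278) and 1.52 (edgeR adjusted p = 0.000944).

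Marker RNA of other cell types also differed between the genotypes. Of the 12 macrophage-like markers 2 were lower and 0 higher, beside 10.6% and 9.72% of all genes. Their sums were 4030 to 4781 in EKLF+/+ and 4088 to 6362 in EKLF-/-. Neutrophil-like markers were higher for 5 of 10, with sums of 74210 to 96910 and 101600 to 196600. Monocyte-like markers were higher for 1 of 8, with sums of 7191 to 8840 and 9076 to 14430. Progenitor-like markers were lower for 4 of 6 and mesenchymal-like for 4 of 7, with 0 higher in each. Erythroid-like markers were lower for 4 of 8 and higher for 1, with sums of 191300 to 254500 and 89620 to 106500, and Hba-a1 was at 0 in every library of this comparison. The part of these shifts in the falls of the leading genes was not tested.

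Single libraries moved the counts. Without EKLF+/+ replicate 2 or 3 or EKLF-/- replicate 3, the number of lower leading genes was 11, 10 and 8, and without EKLF-/- replicate 2 it was 23. The number of higher ones was 7 without EKLF-/- replicate 1 and 2 without EKLF-/- replicate 2. Of the 18 falls, 7 were called with each library left out in turn, those of Abcc3, Cdh5, Myo9a, Sema6d, Timd4, Tmem26 and Tmem65, and so was the rise of Ctsd. Without EKLF-/- replicate 3, Cd5l, Gfra2, Fcna, Il18bp, Igf1 and Ctsb were no longer called, at edgeR adjusted p of 0.0532, 0.0541, 0.0853, 0.0576, 0.107 and 0.104. Fcna and Igf1 also lost the call without EKLF+/+ replicate 2 or 3, Il18bp without EKLF+/+ replicate 1 or 3, and Ctsb without any of the EKLF+/+ replicates. Gfra2 was not tested in the 3 fits that left out an EKLF+/+ library, where it fell under the count filter.

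In EKLF/GFP+ against EKLF/GFP-, 11 of 72 were higher, which is 15.3%, against 18.9% of all 14238 genes tested. 12 were lower, which is 16.7%, against 25.8% of all genes. E230029C05Rik and Ifi30 were not tested. The median log2 fold change of the 72 was 0.06, and that of all genes was -0.01. Klf1 had 902.8, 1194 and 747.5 normalized counts in EKLF/GFP- and 2626, 2356 and 2278 in EKLF/GFP+, with no overlap (1.35 ± 0.16, edgeR adjusted p = 0.000313). The kit and the group coincide in this comparison, so their effects cannot be told apart.

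Hmox1 and Slc40a1 rose in EKLF/GFP+. Hmox1 had 1397, 1197 and 2011 normalized counts in EKLF/GFP- and 2387, 3583 and 4961 in EKLF/GFP+, at 1.25 ± 0.28 (log2 fold change and its SE, edgeR adjusted p = 0.00739). Slc40a1 had 1800, 1996 and 2084 against 3106, 4139 and 5055, at 1.07 ± 0.17 (log2 fold change and its SE, edgeR adjusted p = 0.00114). All EKLF/GFP+ libraries lay above all EKLF/GFP- libraries for both. Of 28 heme and iron genes, 15 were higher and 4 lower, beside 18.9% and 25.8% of all genes, and Lrp1 was among the lower, with 3584, 3405 and 3668 against 969.6, 1639 and 2730 (-0.998, edgeR adjusted p = 0.0313).

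Of the genes at the head of the single-cell list, Fcna and Il18bp rose and others missed the threshold. Fcna had 203.7, 145.2 and 280.2 against 274.6, 491.5 and 688.5, where EKLF/GFP+ replicate 1 overlapped the other group (1.21 ± 0.35, edgeR adjusted p = 0.0225). Il18bp had 107, 104.8 and 141.8 against 123.1, 238.2 and 299.1, with the same overlap (0.90, edgeR adjusted p = 0.0457). Cd5l had 361.3, 271.1 and 709.9 against 381.6, 1122 and 1315 (1.07, edgeR adjusted p = 0.109), and Marco and Timd4 had 1.24 and 0.93 (edgeR adjusted p = 0.0698 and 0.0889). Vcam1 had 692.6, 608.4 and 961.3 against 728.2, 1383 and 2092 (0.90, edgeR adjusted p = 0.0694). In each of these genes EKLF/GFP+ replicate 1 was within the range of the EKLF/GFP- libraries, and EKLF/GFP+ replicates 2 and 3 were above that range. C1qa, C1qb and C1qc had 0.40, 0.12 and 0.37 and did not pass. Cdh5 had -0.07 (edgeR adjusted p = 0.869).

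Among the other rises, Paqr9, a membrane receptor family member, had 52.56, 74.44 and 64.23 against 161.9, 108.3 and 143.3 (1.11, edgeR adjusted p = 0.00394), and Cela1, a protease, had 1.11 (edgeR adjusted p = 0.022). The largest fall was that of Slc8a1, a sodium and calcium exchanger, with 711.4, 692 and 761.9 against 142, 292.3 and 357.2 (-1.45 ± 0.28, edgeR adjusted p = 0.0038). Vat1, Cd300a and Nceh1 fell by 1.08, 0.98 and 0.93 on the log2 scale (edgeR adjusted p = 0.000639, 0.0341 and 0.00194). Genes that were low in the Vcam1-high C1q cells did not share 1 direction. Cx3cr1 and Dab2 fell, by 2.13 and 1.17 on the log2 scale (edgeR adjusted p = 0.00343 and 0.00325), and Pf4 rose by 1.13 (edgeR adjusted p = 0.00763). Csf1r, detected in most C1q cells, fell by 1.75 (edgeR adjusted p = 0.00175), while Adgre1 had 0.21 (edgeR adjusted p = 0.679).

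Marker RNA of other cell types differed between the sorted groups. All 8 monocyte-like and 10 neutrophil-like markers were lower in EKLF/GFP+, where 25.8% of all genes were lower and 18.9% higher. Monocyte-like sums were 23420 to 26710 in EKLF/GFP- against 2959 to 3911, and neutrophil-like sums 109400 to 127800 against 12510 to 20210. Progenitor-like markers were lower for 6 of 6, lymphoid-like for 5 of 5 tested and endothelial-like for 7 of 10, with 0 higher in each. All 10 tested erythroid-like markers were higher, with sums of 145300 to 199400 against 285700 to 366100. All 7 megakaryocyte-like markers, which include Pf4, were higher as well. The 12 macrophage-like markers summed to 9388 to 13660 in EKLF/GFP- and to 5273 to 14270 in EKLF/GFP+. The part of these shifts in the changes of the leading genes was not tested.

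Here too single libraries mattered. The number of higher leading genes was 24 without EKLF/GFP+ replicate 1, 7 and 5 without EKLF/GFP+ replicates 2 and 3, and 6 and 7 without EKLF/GFP- replicates 1 and 2. The number of lower ones was 7 without EKLF/GFP+ replicate 2 and 7 without EKLF/GFP- replicate 3, and 18 without EKLF/GFP+ replicate 3. Of the 11 rises, 5 were called with each library left out in turn, those of Ctsb, Hmox1, Paqr9, Pld3 and Slc40a1. Of the 12 falls, 7 were, with Slc8a1, Vat1 and Nceh1 among them. Fcna lost its call without EKLF/GFP+ replicate 2 or 3 or EKLF/GFP- replicate 1 or 2. Among the fits with 1 library left out, Il18bp kept its call only in that without EKLF/GFP+ replicate 1. The call was lost for Lrp1 without EKLF/GFP+ replicate 2 or any EKLF/GFP- library, for Cela1 without EKLF/GFP+ replicate 2 or 3 or EKLF/GFP- replicate 1 or 3, and Cd300a without EKLF/GFP+ replicate 2 or EKLF/GFP- replicate 1 or 3.

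**Figure D4:**
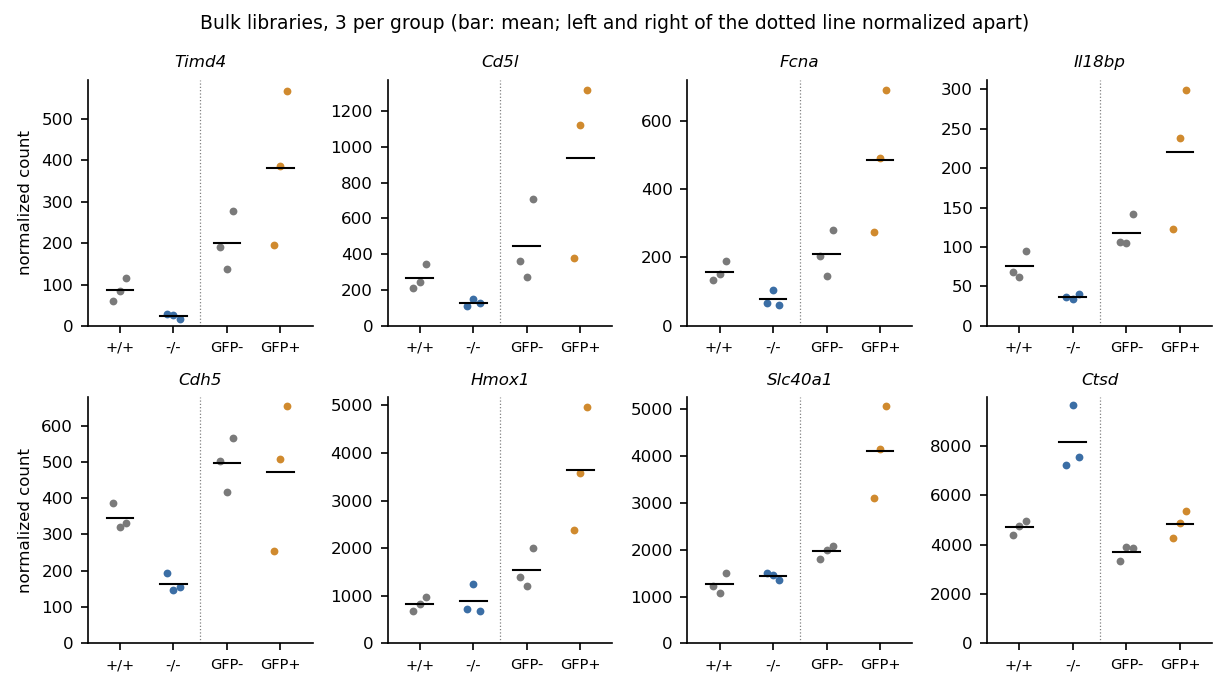
Normalized counts (vertical axis, its own scale in each panel) of 8 leading genes in each bulk library, where points are libraries and bars are means of 3. Libraries left and right of the dotted line were normalized apart. Timd4 lies at 60.34 to 115.9 in EKLF+/+ and 16.1 to 28.13 in EKLF-/-, and Hmox1 at 1197 to 2011 in EKLF/GFP- and 2387 to 4961 in EKLF/GFP+.

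Both comparisons tested 71 leading genes in common, with no library shared between them. Of these, 7 were called in both, 12 in EKLF-/- only, 16 in EKLF/GFP+ only and 36 in neither. Among all genes tested, 10.6% were lower and 9.72% higher in EKLF-/-, and 25.8% and 18.9% in EKLF/GFP+. How many of all genes were called in both was not counted, so whether 7 is many is not known. Of the 7, Fcna, Il18bp, Paqr9, Tmem65 and Ctsb were lower in EKLF-/- and higher in EKLF/GFP+. Sash1 was lower in both, and Ctsd was higher in both. Of the 7, Ctsb, Ctsd, Fcna, Il18bp, Sash1 and Tmem65 each lost a call in 1 of the comparisons or in both when some library was left out, and so did Paqr9 in EKLF-/- without replicate 3. The difference between the comparisons was not tested for any gene.

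**Figure D5:**
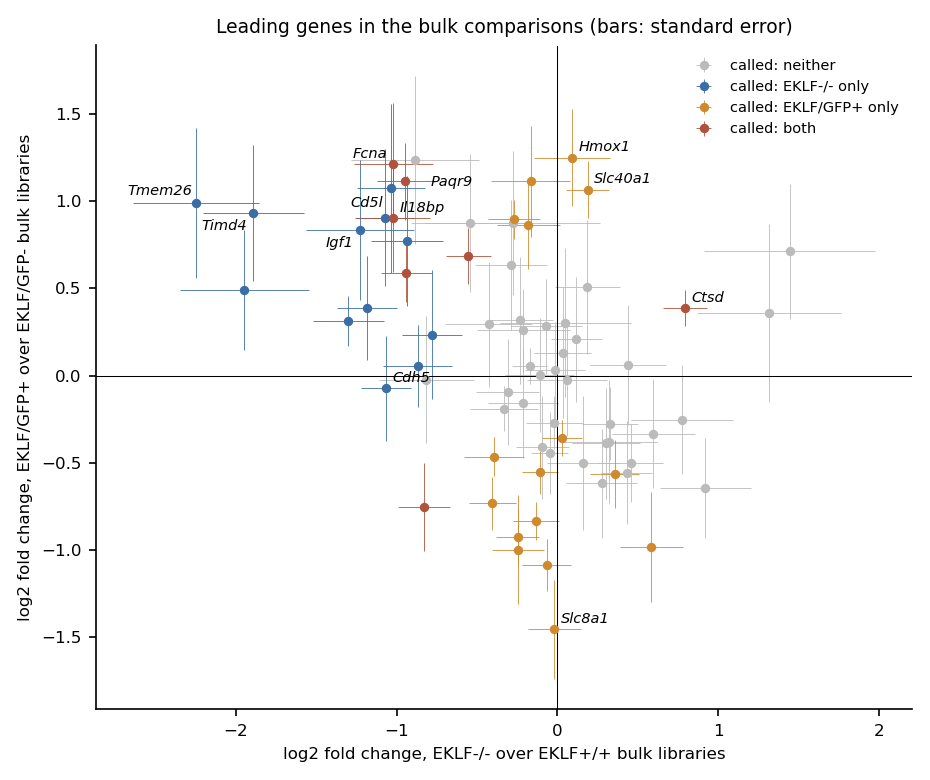
log2 fold change of each leading gene tested in both comparisons, EKLF-/- over EKLF+/+ on the horizontal axis and EKLF/GFP+ over EKLF/GFP- on the vertical axis, with standard errors as bars and colours for the comparison in which it was called. Fcna, Il18bp and Paqr9 lie at the upper left, Ctsd at the upper right, and Hmox1 and Slc40a1 above 0 on the vertical axis and close to 0 on the horizontal axis.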

How the data were processed

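Members and lists were chosen with earlier results of these data known. The authors counted single-cell reads with Alevin against GENCODE vM24 of GRCm38.p6 and deposited estimated counts per cell, of which 4.29% of the non-zero values were not whole. Their cell filter is not given in the text of the study, which retained fewer cells than the matrix holds. The authors aligned the EKLF+/+ and EKLF-/- reads with STAR to mm10 and deposited htseq counts per gene, and for EKLF/GFP they deposited Salmon estimated counts per transcript of GRCm38. Of 116546 transcripts, 115898 were joined to a gene, summed and rounded. Counts on no gene, 67.22% to 72.69% and 0.10% to 0.12% of all, were kept out, as were 5 columns of other libraries, and 2299 older symbols were translated. The count filter asked for 10 or more counts in 3 or more of 6 libraries, and genes that passed were tested in edgeR 4.0.16 (R 4.3.3, TMM, quasi-likelihood) at an adjusted p under 0.05 (Benjamini-Hochberg), with DESeq2 1.42.0 as an alternative. Normalized counts are TMM CPM scaled to the mean library. Cells were thinned with seed 1. A gene was measured at 0.5 or more per 10000 counts in either group. The count tests and levels were tested on simulated data. Named were genes of the 16 function lists, the 15 highest over all other cells and the 15 highest and lowest over the other C1q cells at 2 or more in at least 25% of cells, the 10 most correlated with Vcam1, and the 5 largest rises and falls per bulk comparison. A few others (Sema6d, Tmem65, Pld3, Sash1, Rps10, marker genes and untested genes) were chosen after their values were seen. Some genes of the lists are counted but not reported here by name.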

Additional observations from a re-analysis of the deposited data

How the results depend on the processing

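The number of Vcam1-high C1q cells was 337 with Vcam1 at 10 or more and 584 to 862 under the other alternatives, against 644. The number of leading genes, 77, was 28 (27 shared) with each cell weighted equally, 47 (44 shared) with Vcam1 at 10 or more and 23 (22 shared) after thinning, and 59 without the globins and 60 without both the deepest 5% of cells and cells with markers of another cell type. The ratios of 20 genes over the other C1q cells stayed within 1.5 times of their values in all 120 alternatives, of which those against the Vcam1-low C1q cells alone were chosen after seeing the data. The number of leading genes lower in EKLF-/-, 18, was 8 to 23 with 1 library left out and 5 among the 6 outside the rule at 8 or more times all other cells. The number higher, 1, was 1 to 7 with 1 library left out, 2 with DESeq2 size factors, 5 with DESeq2, 3 with no filter and 0 at 8 or more times. In EKLF/GFP+, 12 were lower, 7 to 18 with 1 library left out, 0 at 8 or more times and 5 at 2 or more times the other C1q cells, and 11 were higher, 5 to 24 with 1 library left out and 2 at 8 or more times. Whether replicate numbers pair the samples cannot be settled with 3 libraries per group. Correlations of deviations of same-numbered libraries were -0.009, 0.009 and 0.068, and 0.032, -0.076 and 0.032. Those of differently numbered libraries ran from -0.043 to 0.026 and from -0.153 to 0.158. With the replicate number as a block, 15 were lower and 2 higher in EKLF-/-, and 12 lower and 15 higher in EKLF/GFP+. With 3 libraries per group, few counts limit Tmem26 and Gfra2, and 1 single-cell library allows no test.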
